A study of Arabidopsis thaliana with 8 samples.

Results

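ELF6, JMJ13 and REF6 encode Jumonji-domain enzymes that remove methyl groups from H3K27me3, a histone mark that keeps genes silent. In Arabidopsis buds the study set the loss of ELF6 against the loss of JMJ13, with regard to self-fertility. Among 25738 genes listed in any library, 73 were at least 3-fold higher in elf6 than in jmj13 and had Col-0, the wild type, between them. They include 15 genes grouped here as cell wall genes and 15 for transcription factors or regulators. Also included are 8 of a list of 40 genes known for responses to touch, wounding and calcium. That list was drawn up with earlier results of these data known. Of all 12169 genes at the level required of the 73, it held 31. These 73 genes are described here across the 4 genotypes.

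The genes were chosen by their measured levels. The FPKM of each library was scaled to a sum of 1000000, giving TPM, a level corrected for gene length, and a gene not listed was taken as 0. A gene was kept when its mean TPM over the 8 libraries was at least 5, when its lower elf6 library was at least 3 times its higher jmj13 library, and when its Col-0 mean lay between the elf6 and jmj13 means. Of the 12169 genes at this level, 97 met the fold criterion and 73 also met the condition on Col-0. In 21 of the other 24 genes, the touch-induced calmodulin-like gene TCH3 among them, the Col-0 mean was below the jmj13 mean. The mirrored rule, with jmj13 at least 3-fold above elf6, kept 7 genes. Values of elf6, jmj13 and Col-0 for the 73 genes are therefore descriptions and were not tested.

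RNA came from buds of floral stages 9 to 13, with 2 libraries per genotype that the labels number 1 and 2. All plants were Col-0 or T-DNA insertion lines in the Col-0 background, and the labels name no treatment. The labels name the genotypes elf6, jmj13 and ref6 without an allele. The study's methods give GABI_113B06 for jmj13 and ref6-1 for ref6, a line in which the zinc-finger part of the gene is disrupted and the catalytic part is intact, whereas sources disagree on the elf6 allele. The labels do not say whether the libraries came from separate plants, so p-values measure only the spread between these libraries. Whole buds were used, in which fewer cells of a type and less RNA per cell cannot be told apart.

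The total of expected counts ranged from 11373306 to 12048319. The elf6 libraries held 18 and 28 counts of ELF6, and the Col-0 libraries 68 and 88. For JMJ13 the counts were 45 and 45 under the label jmj13, with 22 and 51 for Col-0. For REF6 they were 130 and 119 under the label ref6, with 90 and 103 for Col-0. The count of the mutated gene thus checks the elf6 label only. A total per gene does not show where in the gene its reads lie. The study also viewed the aligned reads along these genes. It reports that the catalytic part of REF6 is still expressed in ref6, and that the insertions disrupt this part in elf6 and jmj13. Col-0 replicate 1 and ref6 replicate 1 stood apart from the other libraries. Their 50 most abundant genes took 29.3% and 30.5% of the counts, against 18.4% to 21.4% in the others. Their TMM factors, which correct for such differences in composition, were 0.741 and 0.752 against 1.01 to 1.21. None of the 24 marker genes of floral organs, tapetum, late pollen and green tissue was among the 73. Of these markers 22 were at the level required, and 73 of all 12169 genes at that level were kept. With so small a share over all genes, the absence of markers says nothing about tissue content. The summed level of the 8 late pollen markers was 1557 and 833 TPM in elf6, 2415 and 1323 in jmj13, 2027 and 2769 in Col-0, and 1296 and 1268 in ref6. The 6 green tissue markers summed to 86907 TPM in Col-0 replicate 1 and 96696 in ref6 replicate 1, the libraries that stood apart, and to 58257 to 67956 in the other 6. The part of pollen and green tissue content in the results was not tested.

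Upstream sequences are shown for 4 of the genes because they carry short motifs bound by regulators of fast or jasmonate-related responses. PHI-1 and EXLA1 hold CGCGTT, the core of the site bound by CAMTA factors, calmodulin-binding regulators of early stress genes. JAZ7 and ERF-1 hold CACGTG, the G-box bound by bHLH and bZIP factors. The 250 bases before the annotated start of each gene were read from the RefSeq TAIR10.1 genome and are written 5′ to 3′ on the gene's strand, with the motif in capitals. CGCGTT appears here as its reverse complement AACGCG.
PHI-1 (chr1:12851733-12851982, plus strand): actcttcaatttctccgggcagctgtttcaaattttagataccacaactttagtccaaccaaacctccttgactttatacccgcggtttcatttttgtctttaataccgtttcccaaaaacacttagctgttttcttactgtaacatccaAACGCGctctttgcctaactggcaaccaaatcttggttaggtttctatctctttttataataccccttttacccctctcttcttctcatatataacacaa
EXLA1 (chr3:16895916-16896165, plus strand): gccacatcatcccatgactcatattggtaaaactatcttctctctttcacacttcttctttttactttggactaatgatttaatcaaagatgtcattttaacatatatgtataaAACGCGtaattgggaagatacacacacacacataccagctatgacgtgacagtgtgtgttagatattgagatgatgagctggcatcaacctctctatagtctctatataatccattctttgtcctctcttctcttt
JAZ7 (chr2:14572780-14573029, plus strand): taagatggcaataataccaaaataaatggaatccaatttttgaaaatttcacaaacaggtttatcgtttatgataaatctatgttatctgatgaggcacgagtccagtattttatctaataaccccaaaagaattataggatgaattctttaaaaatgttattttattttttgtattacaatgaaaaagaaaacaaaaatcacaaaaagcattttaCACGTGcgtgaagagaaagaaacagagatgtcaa
ERF-1 (chr4:9758953-9759202, plus strand): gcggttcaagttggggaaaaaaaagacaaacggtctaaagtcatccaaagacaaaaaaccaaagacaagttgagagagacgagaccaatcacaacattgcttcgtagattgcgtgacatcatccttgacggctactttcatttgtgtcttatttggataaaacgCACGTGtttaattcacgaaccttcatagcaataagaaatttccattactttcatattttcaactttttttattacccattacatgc

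These motifs were no mark of the whole group. From 250 bases before to 50 bases after the start, on both strands, CGCGTT was present in 4 of the 72 genes with a gene model, or 5.56%, against 3.4% of 27443 promoters. In the 250 bases before the start alone, CGCGTT was in 2 genes, or 2.78%, against 2.59%. CACGTG was present in 9 genes, or 12.5%, against 7.68% of all promoters and 9.4% of those of genes at the same level. The evening element AAAATATCT was found in 5, or 6.94%, against 2.82%. W-boxes, the sites of WRKY factors, were found as TTGACC in 13.9% of the genes against 14.2%, and as TTGACT in 26.4% against 21.8%. CACGTT was found in 2 of the 72 genes, or 2.78%, against 8.95% of all promoters, and AGCCGCC, the GCC-box, in none against 0.794%. ACCGAC and GCCGAC, the sites of DREB factors, were in 6.94% against 5.7% and in 1.39% against 3.28%, and the heat shock element core GAANNTTC in 16.7% against 11.6%. The 4 forms of the CTCTG element, which the zinc fingers of REF6 recognise, were CTCTGTTT in 4.17% against 4.64%, CTCTGTTC in 2.78% against 1.35%, and CTCTGCTC and CTCTGCTT in none against 0.674% and 1.61%. TATAAA, the TATA box, was in 59.7% against 52.1%. Neighbouring motifs can share end bases, such as the TT of CACGTT and TTGACC. A match describes the letters and is not evidence of binding.

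The group was expressed at a moderate level, and the elf6 libraries stood above all others. The summed level of the 73 genes was 10685 and 11758 TPM in elf6, 1583 and 1958 in jmj13, 4032 and 2686 in Col-0, and 1535 and 4007 in ref6. Their median level was 70.5 and 75.5 TPM in elf6, 9.27 and 11 in jmj13, 22.8 and 18.7 in Col-0, and 10.5 and 22.1 in ref6. The elf6 libraries were thus the highest of the 8 and lay close to each other, and the ref6 libraries lay far apart. The median fold between the libraries of a genotype was 1.15 in elf6 and 1.24 in jmj13, against 1.53 in Col-0 and 2.58 in ref6. No gene differed more than 2-fold between the elf6 libraries, and 12 did between the jmj13 libraries. The lowest count of any of the 73 genes was 59 in an elf6 library and 2 in a jmj13 library.

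**Figure D1:**
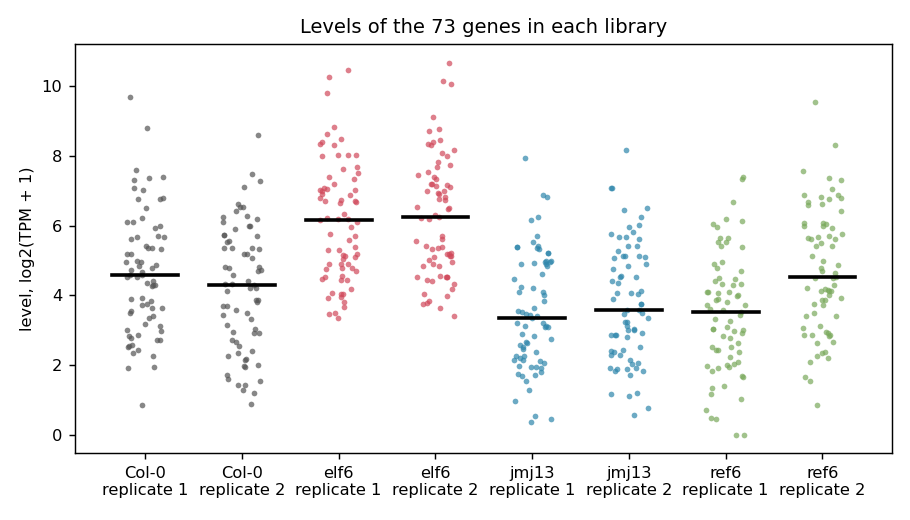
Level of each of the 73 genes, as log2(TPM + 1), in the 8 libraries; points are genes and black bars are medians. The elf6 medians, 70.5 and 75.5 TPM, lie above those of every other library, and the ref6 libraries differ from each other, at 10.5 and 22.1 TPM.

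By the choice of genes, the elf6 mean was above the jmj13 mean in all 73, by 3.38-fold to 48.4-fold with a median of 5.33-fold. Both elf6 libraries were above both jmj13 libraries in 17.6% of the 12169 genes at this level. The genes just inside the 3-fold limit were AT3G06070, AT2G47440 and AT3G07470, at 3.02, 3.05 and 3.05-fold between the lower elf6 and the higher jmj13 library. Just outside it were RALFL22, THE1 and AT4G35320, at 2.99, 2.97 and 2.97-fold. RALFL22 encodes a RALF-like signalling peptide, and THE1 a receptor-like kinase that senses the state of the cell wall.

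Xyloglucan enzymes and expansin-like proteins of the wall included the gene with the widest gap. XTR6, TCH4, XTH16 and XTH4 encode xyloglucan endotransglucosylase/hydrolases, which cut and rejoin the xyloglucan that ties cellulose fibrils together, and EXLA1 and EXLA2 encode expansin-like proteins. XTR6 was at 14.2 and 22 TPM in elf6, at 0.456 and 0.47 in jmj13, at 0.813 and 1.29 in Col-0, and at 0 and 0.793 in ref6. The lower elf6 library of XTR6 was 30.2 times the higher jmj13 library, the largest ratio of the 73, and it rests on 5 and 5 counts in jmj13 against 158 and 242 in elf6. TCH4, a gene known for its induction by touch, was at 896 and 1061 TPM in elf6, 38.8 and 86.3 in jmj13, 73.9 and 84.0 in Col-0, and 4.76 and 65.5 in ref6. Col-0 and jmj13 overlapped for TCH4, and ref6 replicate 1 was the lowest library by a wide margin. EXLA1 was at 118 and 144 TPM in elf6 against 5.15 and 6.23 in jmj13 and 14.0 and 11 in Col-0. EXLA2 was at 167 and 215 TPM in elf6 against 13.4 and 15.4 in jmj13 and 30.3 and 35.5 in Col-0. Both expansin-like genes had Col-0 above jmj13 in every library. EXLA1 overlaps a gene on the opposite strand, as do 9 others of the 73, and the use of strand in counting is not given in the sources used here. XTH16, at 316 and 320 TPM in elf6, and XTH4, at 454 and 558, were higher in level and lower in ratio, at 4.46 and 3.35.

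The EXORDIUM family, extracellular proteins linked to brassinosteroid-dependent cell expansion, gave 3 genes. EXO had the highest elf6 level of the 73, at 1408 and 1636 TPM, with 112 and 135 in jmj13, 448 and 178 in Col-0, and 69.1 and 318 in ref6. PHI-1 was at 359 and 419 TPM in elf6, 5.28 and 15.8 in jmj13, 29.8 and 26.4 in Col-0, and 5.92 and 34.1 in ref6. EXL5 was at 182 and 256 TPM in elf6 against 28.8 and 37.4 in jmj13. All 3 had Col-0 above both jmj13 libraries, by 2.53-fold to 2.74-fold on the means.

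Wall glycoproteins numbered 6. FLA9 and FLA13 encode fasciclin-like arabinogalactan proteins, AGP7, AGP10 and AGP17 encode arabinogalactan proteins, and LRX3 an extensin with leucine-rich repeats. Their elf6 to jmj13 ratio, lower against higher library, ran from 3.41 to 6.89, and the elf6 mean was 1.37-fold to 3.21-fold above the Col-0 mean. AGP17 was at 127 and 138 TPM in elf6, 27.7 and 32.6 in jmj13, 130 and 62.7 in Col-0, and 101 and 66.0 in ref6. One Col-0 library of AGP17 thus reached the elf6 level and the other did not. AGP10 was at 260 and 347 TPM in elf6, 74.6 and 74.8 in jmj13, with 191 and 138 in Col-0. FLA9 was at 257 and 322 TPM in elf6, 40.9 and 48.2 in jmj13, with 110 and 97.7 in Col-0.

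**Figure D2:**
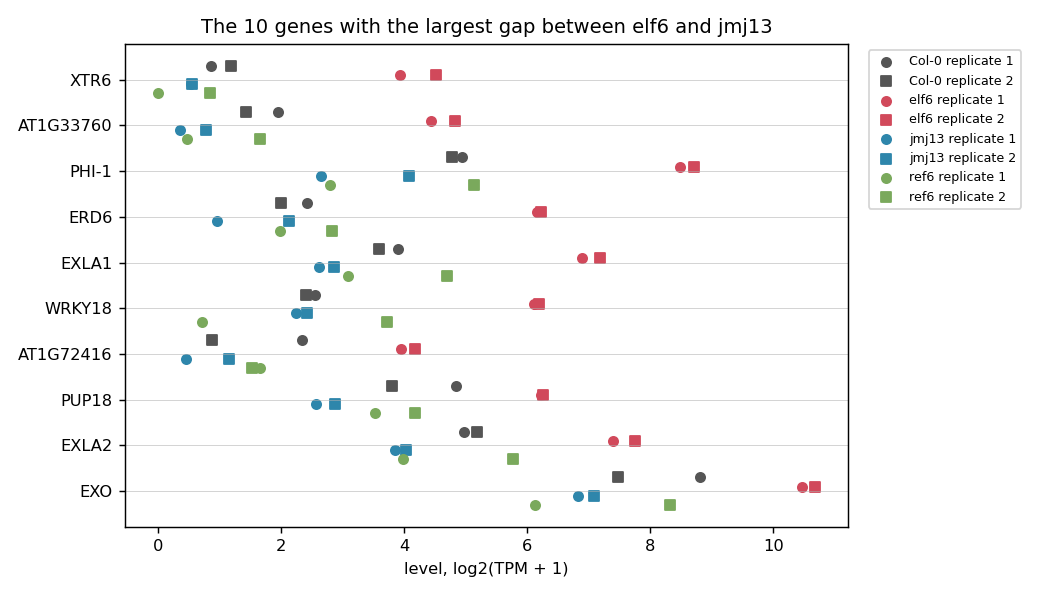
Level of the 10 genes with the largest ratio of the lower elf6 to the higher jmj13 library, as log2(TPM + 1), with circles for replicate 1 and squares for replicate 2 of each genotype. The elf6 points lie to the right of every other library in each gene, from a ratio of 10.5 in EXO to 30.2 in XTR6.

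AP2/ERF factors, a plant family named after its role in floral identity and ethylene responses, numbered 6. They were AT1G33760, DREB26, ERF-1, ERF6, ERF104 and AT5G61590. AT1G33760 was at 20.7 and 27.5 TPM in elf6, with 0.285 and 0.71 in jmj13, 2.86 and 1.69 in Col-0, and 0.39 and 2.16 in ref6. Its jmj13 values come from 2 and 5 counts. ERF6 was at 395 and 439 TPM in elf6, 50.6 and 89.7 in jmj13, 108 and 62.3 in Col-0, and 45.3 and 131 in ref6. Its neighbour ERF-1 was at 257 and 270 TPM in elf6, 40.3 and 55.5 in jmj13, with 63.1 and 51.3 in Col-0. ERF6 and ERF-1 lie 5041 bases apart on chromosome 4, and AT5G61590 and ERF104 lie 832 bases apart on chromosome 5. For ERF-1, ERF6 and ERF104, Col-0 and jmj13 overlapped. Over the 6 genes, the elf6 mean was 3.15-fold to 10.6-fold above the Col-0 mean and the Col-0 mean 1.2-fold to 4.56-fold above the jmj13 mean.

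Of the other transcription factors, WRKY18, a regulator of defence responses, had the widest gap. It was at 68.3 and 72.6 TPM in elf6, 3.75 and 4.35 in jmj13, 4.86 and 4.29 in Col-0, and 0.649 and 12.2 in ref6. Col-0 and jmj13 were thus nearly equal for WRKY18 and only elf6 stood apart among these 3 genotypes. MYBR1 and MYB73, related MYB factors, were at 321 and 339 TPM and at 159 and 168 TPM in elf6, against 36.0 and 50.4 and against 29.0 and 42.0 in jmj13. BZIP53, GBF1 and the GATA factor BME3 had ratios of 3.78, 3.06 and 4.08. AT1G70270, AT4G37240 and AT2G23690, annotated only as a transcription factor or as HTH-type transcriptional regulators, had ratios of 4.42, 3.69 and 3.81. BZIP53 shares all its values with AT3G62422, a second entry for the same transcript, so that the 73 entries stand for 72 readouts.

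Signalling genes covered calcium, MAP kinase, jasmonate and abscisic acid. AT4G27280, an EF-hand calcium-binding protein, was the most abundant of the 73 in jmj13 and in Col-0. It was at 1231 and 1132 TPM in elf6, 244 and 286 in jmj13, 830 and 390 in Col-0, and 49.1 and 742 in ref6. The ref6 libraries of AT4G27280 thus spanned a range from below jmj13 to near Col-0 replicate 1. Its closest relative by sequence, PBP1, a calcium-binding partner of the kinase PINOID, was at 33.8 and 30.3 TPM in elf6, 6.46 and 6.55 in jmj13, with 22.8 and 5.28 in Col-0. CML38, a calmodulin-like protein, was at 28.9 and 20.2 TPM in elf6, 1.45 and 4.26 in jmj13, 5.00 and 1.45 in Col-0, and 0 and 5.17 in ref6. MPK3, a MAP kinase of stress signalling, was at 132 and 119 TPM in elf6, 18.0 and 29.1 in jmj13, with 49.9 and 17.3 in Col-0. For CML38 and MPK3 the Col-0 libraries spread over the jmj13 libraries on both sides.

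JAZ7, a member of the JAZ family of jasmonate repressors, was at 104 and 107 TPM in elf6, 7.53 and 15.8 in jmj13, 47.9 and 26.9 in Col-0, and 18.9 and 49.7 in ref6. No 2 of elf6, Col-0 and jmj13 overlapped for JAZ7, and its Col-0 mean was 3.2-fold above jmj13 and 2.83-fold below elf6. PYL5, an abscisic acid receptor, was at 52.7 and 46.0 TPM in elf6, 8.22 and 10.1 in jmj13, with 22.8 and 13.7 in Col-0. CYP707A3, an enzyme that breaks down abscisic acid, was at 31.7 and 33.8 TPM in elf6, 3.64 and 5.99 in jmj13, 6.33 and 5.59 in Col-0, and 1.23 and 5.37 in ref6. A receptor and a catabolic enzyme of the same hormone were therefore both higher in elf6 than in jmj13.

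Among 5 membrane transporters, ERD6, a sugar transporter first found by its induction under dehydration, had the largest rise over Col-0. It was at 70.5 and 74.2 TPM in elf6, 0.946 and 3.39 in jmj13, 4.35 and 2.98 in Col-0, and 2.96 and 6.13 in ref6. The elf6 mean of ERD6 was 19.7 times the Col-0 mean, the largest such ratio of the 73. PUP18, a purine permease, was at 73.9 and 75.5 TPM in elf6, 4.96 and 6.34 in jmj13, with 27.7 and 13.0 in Col-0. AAP5 and AT3G56200, both amino acid transporters, and DIC3, a mitochondrial dicarboxylate carrier, had ratios of 3.21, 3.34 and 4.23.

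AT3G19680 and AT1G50040, both with a DUF1005 domain of unknown function, differed in where Col-0 lay. AT3G19680 was at 203 and 204 TPM in elf6, 16.1 and 21.9 in jmj13, 134 and 72.3 in Col-0, and 29.0 and 118 in ref6. AT1G50040 was at 26.6 and 22 TPM in elf6, 2.87 and 2.78 in jmj13, 7.76 and 4.82 in Col-0, and 3.72 and 6.79 in ref6. The Col-0 mean of AT3G19680 was 5.44-fold above jmj13, the largest such ratio of the 73, and that of AT1G50040 was 2.22-fold above. AT3G19680 overlaps AT3G19690, also one of the 73, by 101 bases on the opposite strand, so that their reads may not be separate. AT3G19690, a CAP-domain secretory protein, was at 34.4 and 27.8 TPM in elf6, 4.17 and 3.08 in jmj13, with 24.6 and 10.2 in Col-0.

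ARL, an ARGOS-like regulator of organ size, and AT1G72430, a SAUR-like protein of the auxin-responsive family, had ratios of 3.18 and 4.06. AT2G35290, annotated as an uncharacterized protein, was at 336 and 290 TPM in elf6 against 45.1 and 64.2 in jmj13 and 168 and 76.5 in Col-0. The remaining 26 genes, most of them annotated as uncharacterized proteins or by a domain only, had ratios from 3.02 to 11.7. The widest of these was in AT1G72416, a DnaJ-domain protein, at 14.5 and 17.2 TPM in elf6 and 0.376 and 1.24 in jmj13. LSU3, a protein of the response to low sulfur, had the smallest Col-0 to jmj13 ratio of the 73, at 1.01, with 21.0 and 21.9 TPM in elf6. AT1G72240 had the smallest elf6 to Col-0 ratio, at 1.36, with 38.5 and 39.4 TPM in elf6, 7.75 and 10.2 in jmj13, with 39.8 and 17.6 in Col-0.

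Col-0 lay nearer to jmj13 than to elf6 for most of the genes at the level scaled to 1000000, and in the middle after TMM scaling. On the log2(TPM + 1) scale, with jmj13 set to 0 and elf6 to 1, the median position of Col-0 was 0.262, and it was 0.419 with TMM. Col-0 replicate 1 was at 0.362 and Col-0 replicate 2 at 0.209. The position was below 1/3 in 42 genes, between 1/3 and 2/3 in 24, and above 2/3 in 7. The elf6 to Col-0 fold was larger than the Col-0 to jmj13 fold in 57 of the 73 genes, with medians of 3.37 and 1.92, and in 41 after TMM scaling, with medians of 2.63 and 2.67. In 12 of 15 transcription factors and regulators the elf6 side was the larger with either scaling, the exceptions without TMM being DREB26, AT1G70270 and AT4G37240. Of the 15 wall genes it was the larger in 11, and in 7 after TMM scaling. The scaling itself moved the median of all 12169 genes from 0.32 to 0.04 for elf6 minus Col-0, from -0.41 to -0.02 for Col-0 minus jmj13, and from -0.12 to -0.003 for elf6 minus jmj13, all as log2 differences.

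Both elf6 libraries were above both Col-0 libraries in 70 of the 73 genes, against 41.7% of all genes at this level. Both jmj13 libraries were below both Col-0 libraries in 44, against 7.91%. The choice of genes used these same contrasts, and the counts are descriptions.

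**Figure D3:**
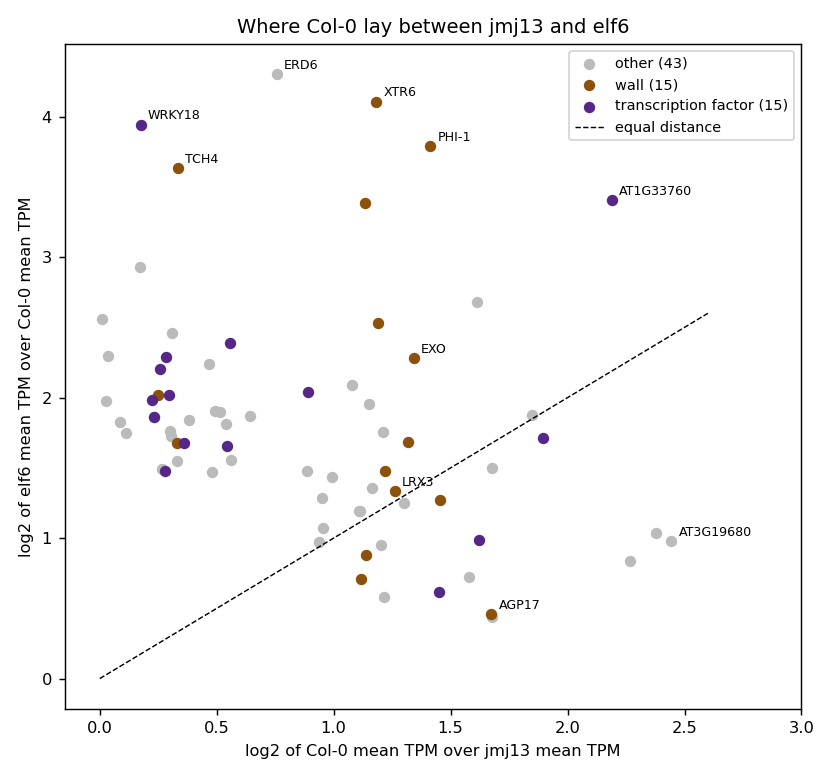
For each of the 73 genes, the log2 ratio of the Col-0 mean to the jmj13 mean (horizontal) and of the elf6 mean to the Col-0 mean (vertical), in TPM scaled to 1000000. Points above the dashed line, 57 of 73, have the larger ratio on the elf6 side, as have 12 of the 15 transcription factors and regulators (purple) and 11 of the 15 wall genes (brown).

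The ref6 libraries entered the choice of genes only through the mean over the 8 libraries, whereas the elf6, jmj13 and Col-0 libraries they are compared with were selected on. The counts and positions in this paragraph rest on the selected elf6 and jmj13 values and are descriptions. In ref6, 72 of the 73 genes were below elf6 in every pair of libraries, against 32.9% of all genes at this level. In 25 genes both ref6 libraries were above both jmj13 libraries, against 7.15%. The median position of the ref6 mean between jmj13 and elf6 was 0.215. The position was -0.067 in ref6 replicate 1 and 0.425 in ref6 replicate 2. In ref6 replicate 1, 42 of the genes were below the jmj13 mean, against 2 in ref6 replicate 2.

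Against Col-0, none of the 73 genes was called in ref6. In a quasi-likelihood test by edgeR fitted to all 8 libraries, with Benjamini-Hochberg adjustment, 1 of 19939 genes, or 0.00502%, was called at an adjusted p under 0.05 and a 2-fold change, and the lowest adjusted p among the 73 was 0.958. At an unadjusted p under 0.05, 7 of the 73 were lower, against 2.64% of all genes tested, and 1 was higher, against 2.03%. DESeq2 also called none of the 73, with 11 at an unadjusted p under 0.05. The median log2 fold change of the 73 was -0.41, against -0.02 over all genes tested, and 59 of the 73 were negative. This direction rested on the libraries set apart. Without Col-0 replicate 1 and ref6 replicate 1 the median was 0.39, with 57 of 73 positive and none called.

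The genes of ref6 and Col-0 stood in opposite order in the libraries set apart and in the other 2. In the libraries set apart, ref6 replicate 1 was below Col-0 replicate 1 in 65 of the 73 genes, against 49.7% of all genes at this level, with a median log2 difference of -1.08. In the other libraries, ref6 replicate 2 was above Col-0 replicate 2 in 62 genes, against 63.1%, with a median log2 difference of 0.45 against 0.07 over all genes. Both ref6 libraries were above both Col-0 libraries in 5 genes, against 5.7%, and below them in 9, against 6.03%.

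**Figure D4:**
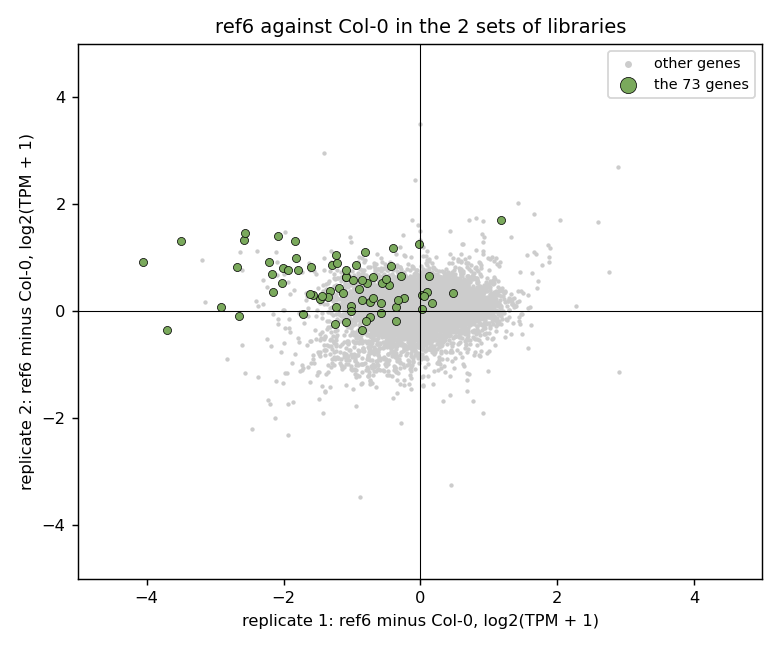
Difference of ref6 and Col-0 as log2(TPM + 1) in the libraries of replicate 1 (horizontal) and of replicate 2 (vertical), for the 73 genes (green) and the other genes with a mean TPM of at least 5 (grey). Most of the 73 lie in the upper left, lower in ref6 in replicate 1 (65 genes) and higher in replicate 2 (62 genes).

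The gene with the lowest unadjusted p was AT3G19690, with an edgeR log2 fold change of -1.78 ± 0.55 (SE) and an adjusted p of 0.958. This was -0.58 without Col-0 replicate 1, -2.44 without Col-0 replicate 2 and -0.21 without both libraries set apart. AT4G11210, a dirigent-like protein, had the largest ratio of ref6 to Col-0, with ref6 libraries at 15.1 and 13.7 TPM and Col-0 libraries at 6.07 and 3.52. The edgeR log2 fold change of AT4G11210 was 1.47 ± 0.49 (SE) with an adjusted p of 0.999. It was 2.27 without Col-0 replicate 1 and 0.90 without Col-0 replicate 2, and the gene was among the 5 with both ref6 libraries above both Col-0 libraries. The next largest ratios were in DIC3 and WRKY18. At the other end were AT1G22470, XTR6 and AT3G19690. AT1G22470 had ref6 libraries at 1.05 and 6.27 TPM and Col-0 libraries at 22.3 and 1.93, so that a single Col-0 library set its ratio.

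Before TMM scaling, the spread within Col-0 and within ref6 ran against that of other genes in Col-0 and along with it in ref6. Col-0 replicate 1 was at least 2-fold above Col-0 replicate 2 in 16 of the 73 genes, against 1.83% of all genes at this level. The reverse held in 2, against 23.8%. The choice of genes used the Col-0 mean, so a high value in 1 Col-0 library could bring a gene in. Without Col-0 replicate 1 the rule kept 62 of the 73. The Col-0 values in this paragraph are therefore descriptions of genes selected in part on them. In ref6, replicate 2 was at least 2-fold above replicate 1 in 43 of the 73, against 26.8%, and the reverse held in none, against 1.65%. Over all genes at this level, the median log2 difference of replicate 1 minus replicate 2 was -0.51 in Col-0 and -0.56 in ref6. For the 73 genes it was 0.425 in Col-0 and -1.24 in ref6. These values hold the differences in composition that TMM corrects. The TMM factors of replicates 1 and 2 were 0.741 and 1.01 in Col-0, and 0.752 and 1.07 in ref6. ERF104 was at 3.21 and 47.8 TPM in ref6, WRKY18 at 0.649 and 12.2, and AT4G27280 at 49.1 and 742. In the AP2/ERF factors, ref6 replicate 2 exceeded replicate 1 by 2.89-fold to 14.9-fold, and in the arabinogalactan and extensin group the ratio was 0.652 to 1.69. The wall glycoproteins were therefore closer between the ref6 libraries than the AP2/ERF factors. The part of library composition in these differences was not tested.

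Short genes with few exons were frequent in the group. Of the 72 genes with a gene model in TAIR10.1, 42 have 1 exon in their longest transcript, or 58.3%, against 14.2% of 11866 genes at the same level. Another 12 have 2 exons, and 3 have 6 or more, or 4.17%, against 40.7%. The median transcript length was 1218 bases against 1595. The genes are spread over all 5 chromosomes, with 21 on chromosome 1 and 10 on chromosome 2. ERD6, with 17 exons, and GBF1, with 12, were at the upper end.

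**Figure D5:**
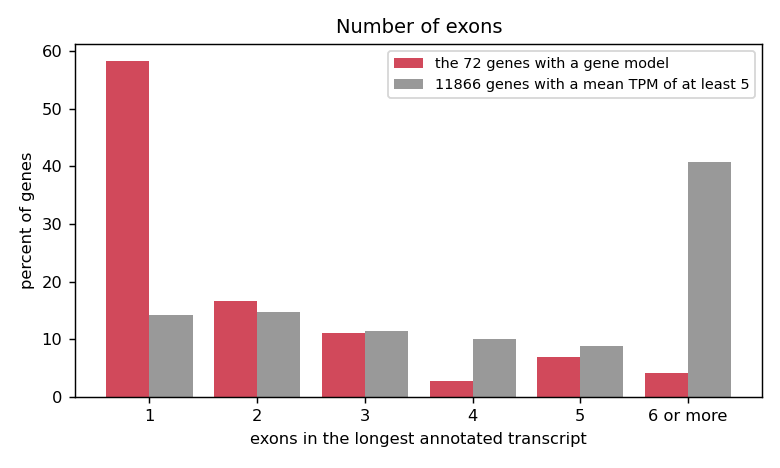
Percent of genes with 1 to 6 or more exons in the longest annotated transcript, for the 72 genes with a gene model (red) and for 11866 genes with a mean TPM of at least 5 (grey). Single-exon genes make up 58.3% of the red bars and 14.2% of the grey bars.

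Similar sequences recurred within the group. By blastn of the longest transcripts, 19 of the 73 genes had another of the 73 as their closest relative. They included EXLA1 and EXLA2, 84.2% identical over 822 bases, XTR6 and TCH4, 80.8% over 845, AT4G27280 and PBP1, 80.2% over 374, and FLA9 and FLA13, 75.9% over 878. PHI-1 and EXO were 72.3% identical over 848 bases and AT3G19680 and AT1G50040 72.4% over 1530. No gene of the 73 was at least 90% identical to its closest relative over 200 bases or more, other than the shared entry of BZIP53. Lower-scoring matches were not checked against this limit. PUP18 and AT1G57980, 85.5% over 1407 bases, came nearest.

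Gene lists drawn up from general knowledge of the pathways, with earlier results of these data known, place these genes among their relatives. Of 40 touch, wound and early calcium response genes, 31 were at this level and 8 were among the 73, namely TCH4, CML38, WRKY18, ERF6, ERF104, MYBR1, MYB73 and EXO. Both elf6 libraries were above both jmj13 libraries in 27 of the 31, against 17.6% of all genes at this level. They were below in 2 of the 31, against 37.9%. The median log2 difference was 1.51, against -0.12 over all genes at this level. The 8 members are counted in these values, and the same contrast chose them. Of 18 jasmonate signalling genes at this level JAZ7 was among the 73, with elf6 above jmj13 in 8 and below in 4. None of 12 jasmonate synthesis genes, 8 cold response genes or 8 circadian clock genes at this level was among the 73. The 73 are a small share of all 12169 genes at this level, so none in lists of this size shows no lack. Of the 12 jasmonate synthesis genes, elf6 was above jmj13 in 7 and below in 2. It was above in 6 of the 8 cold response genes and below in 1, and above in 3 of the 8 clock genes and below in 5. Of 5 genes of drought and abscisic acid at this level, ERD6 was among the 73, and 1 was kept by the mirrored rule. In these 5, elf6 was above jmj13 in 2 and below in 2, with a median log2 difference of 0.054. That list does not hold PYL5 and CYP707A3, the abscisic acid genes among the 73.

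The families of the members can be read against the same 17.6% of all genes above and 37.9% below. Of 14 XTH genes at this level, elf6 was above jmj13 in both libraries in 12 and below in 2, and 4 were among the 73. Of 18 expansins, elf6 was above in 2, EXLA1 and EXLA2, and below in 11. Of 10 EXORDIUM family genes it was above in 8 and below in 1, and of 45 arabinogalactan proteins above in 18 and below in 8. Of 61 ERF and DREB genes it was above in 19 and below in 26, and 6 were among the 73. Of 15 WRKY genes it was above in 9 and below in 1. The elf6 and jmj13 contrast chose the members, and these counts hold them.

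The study began from genes that gained H3K27me3 in buds lacking ELF6, JMJ13 and REF6, in earlier published data. From these it took candidate targets of each enzyme by a fall in these same libraries. A 2-fold difference between elf6 and jmj13 was also required. That contrast chose the 73, so overlap with them is not independent. Of the 9 JMJ13 candidates at this level, 6 were among the 73, namely AT1G50040, PUP18, AT1G72240, JAZ7, AT3G19680 and AGP7. Of the 9 ELF6 candidates at this level none was. They were picked for a fall in elf6 against Col-0, whereas the 73 needed an elf6 mean no lower than Col-0. The lack of overlap was therefore set by the choice of genes. Among the 7 genes of the mirrored rule, 1 was an ELF6 candidate.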

How the data were processed

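The authors sequenced mRNA-enriched RNA from buds as single-end reads in 8 libraries, 2 for each of Col-0, elf6, jmj13 and ref6, and aligned them to TAIR10 with bowtie2. RSEM is named in the submitters' processing notes; its version, the read filters and the use of strand are not given in the sources used here. For every library the authors deposited 1 table with expected count and FPKM columns, listing only genes above 0. An expected count is an estimate of the reads from a gene, scaled neither for depth nor for length, and 89.3% to 91.7% of them were whole. FPKM as deposited by the authors is scaled for gene length and library total.

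FPKM was scaled to a sum of 1000000 per library (TPM), and the 73 genes were chosen from it by the rule given above. For the test of ref6 against Col-0, expected counts were rounded, filtered with filterByExpr (19939 of 25738 genes kept), scaled by TMM and fitted with edgeR 4.0.16 (glmQLFit, glmQLFTest; R 4.3.3) over all 8 libraries. A call needed a Benjamini-Hochberg adjusted p under 0.05 over all genes tested and a 2-fold change. The SE printed with an edgeR log2 fold change was derived from the F statistic of that test. It is the absolute log2 fold change divided by the square root of F. The script was checked on simulated counts. Alternatives were DESeq2 1.42.0, limma 3.58.1 on log2(FPKM + 1) and log2(FPKM + 0.1), other scalings and filters, the replicate number as a block, and each library left out. Gene models and upstream sequences came from RefSeq TAIR10.1, matched by locus, for 72 of the 73 genes. Transcripts were compared with blastn 2.17.0+.

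Genes were named when they were the mutated genes, had the 10 largest elf6 to jmj13 ratios or the 10 highest elf6 levels, lay next to the 3-fold limit, had the 3 highest or lowest ref6 to Col-0 ratios, were neighbours or relatives of another of the 73, or were in a gene list. LSU3 and a few others were named after their values were seen. The 73 genes, the lists and the role groups were chosen with earlier results of these data known. Each of the 73 genes had at least 59 counts in every elf6 library, but as few as 2 in a jmj13 library, which limits the precision of its ratio.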

Additional observations from a re-analysis of the deposited data

How the results depend on the processing

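The number of genes depended on the limits and on 1 library. It was 156 at 2-fold, 44 at 4-fold and 120 at a mean TPM of at least 1, and leaving out 1 library gave 69 to 126 genes. The highest count came without jmj13 replicate 2, and 72 of the 73 genes were among those 126. Fewer of the 73 were kept in the other cases. It was 62 without Col-0 replicate 1, 65 without jmj13 replicate 1, and 67 without Col-0 replicate 2 or either elf6 library. TMM scaling gave 97 genes, 72 of them shared, and moved the median Col-0 position to 0.419. For ref6 against Col-0, the count of calls over all genes was 33 with DESeq2, 32 without a filter on low counts and 0 with library size only, a mean of at least 50 counts, the 4 libraries alone, or limma on log2(FPKM + 1) with or without a mean FPKM of at least 1. It was 0 to 1 when 1 library was left out and 8 without Col-0 replicate 1 and ref6 replicate 1, a choice made after seeing the data, which also gave a median of 0.394 for the 73 genes. That median was 0.165 without Col-0 replicate 1 alone and -0.851 without ref6 replicate 2. None of the 73 genes was called under any of these alternatives. The cause of these shifts was not tested.

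A replicate block in the fit gave 2 called genes, and the median of the 73 genes was -0.408. The labels do not say that equal numbers mark a shared batch. Across 12169 genes, which are not independent, the difference of replicate 1 and replicate 2 in Col-0 correlated with that in ref6 at 0.588, and the same measure was 0.415 for elf6 and jmj13 and 0.107 to 0.213 for the other 4 combinations of genotypes.

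Some single log2 fold changes of ref6 against Col-0 turned sign. AT1G22470 was 1.01 without Col-0 replicate 1, -3.5 without ref6 replicate 2 and 1.6 without both libraries set apart. WRKY18 was -0.031 with the block, -0.27 with limma on log2(FPKM + 1) and at a mean FPKM of at least 1, -0.65 on log2(FPKM + 0.1), -0.18 without Col-0 replicate 2 and -2.6 without ref6 replicate 2, the lowest of a range up to 0.994 with 1 library left out. DIC3 was -0.43 without Col-0 replicate 2 and -0.05 without ref6 replicate 1, within a range up to 1.91 with 1 library left out. With 2 libraries per genotype, small differences were not detectable, and some larger ones were not called either. In the edgeR fit to all libraries, AT1G22470 was at -2.15 ± 0.97 (SE) with an adjusted p of 0.999. AT4G11210, in the other direction, was at 1.47 ± 0.49 (SE) with an adjusted p of 0.999. The lack of calls therefore does not show that ref6 and Col-0 were equal for these genes.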

Other observations

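The 7 genes of the mirrored rule, at least 3-fold higher in jmj13 than in elf6, included 2 pectin lyase-like proteins, which act on the pectin of the wall. AT4G24780 was at 107 and 122 TPM in jmj13, 29.8 and 35.2 in elf6, 45.5 and 89.1 in Col-0, and 69.4 and 75.0 in ref6. AT1G48100, of the same superfamily, was at 35.2 and 30.2 TPM in jmj13 against 8.78 and 6.14 in elf6. ORA47, an AP2/ERF factor like 6 of the 73, was at 23.8 and 30.0 TPM in jmj13, 7.14 and 3.45 in elf6, and 24.9 and 14.4 in Col-0. The AP2/ERF family therefore held genes on both sides of the elf6 and jmj13 contrast.

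Of the genes that met the 3-fold limit but had Col-0 outside, TCH3 was at 250 and 262 TPM in elf6, 15.7 and 28.6 in jmj13, 14.7 and 13.8 in Col-0, and 3.00 and 40.2 in ref6. NUDT7, a nudix hydrolase, was at 177 and 192 TPM in elf6, 24 and 30.1 in jmj13, 23.7 and 21.4 in Col-0, and 8.36 and 37.4 in ref6. Both had ref6 replicate 1 as the lowest library and ref6 replicate 2 as the highest after elf6. These genes were named after their values were seen. Whether Col-0 lay outside depended on the scaling. With TMM scaling, 110 genes met the fold limit and 97 of them had Col-0 between, against 97 and 73 without it.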
